A study of Arabidopsis thaliana with 18 samples.

Results

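Expression of 27371 genes was measured in shoots and roots of Arabidopsis thaliana, and 4 oxygenase genes were taken for having the largest falls in ACC-treated against KMBA-treated roots on the log2(FPKM + 1) scale, among 17169 genes tested in roots. They were the cytochrome P450 genes CYP93D1 (AT5G06900) and CYP712A2 (AT5G06905) and the 2-oxoglutarate-dependent dioxygenase genes AT1G52820 and AT1G15540. Because they were chosen by that difference, their root values in the ACC and KMBA groups are given as a description, without a test. PolyA RNA was sequenced from 18 libraries, 3 biological replicates in each of 6 groups. All plants were Col-0, were 21 days old and had been on 100 mM NaCl for the last 16 days, so salt was common to every group. Shoots came from plants with no addition (WT), from plants colonized by the bacterial endophyte Enterobacter sp. SA187, and from plants given ACC or KMBA, each at 100 nM. Roots came from the ACC and KMBA plants, and WT and SA187 roots were not analysed here, so no root value below has an untreated reference. ACC is the compound that plants oxidize to ethylene, and KMBA, the 2-keto-4-methylthiobutyric acid made by SA187, is the keto acid of methionine. The 3 ACC root libraries were all in pool 4 and lane 4 and the 3 KMBA root libraries all in pool 2 and lane 2, so compound and sequencing pool cannot be told apart in roots. ACC shoot replicates 2 and 3 and KMBA shoot replicate 3 were in pool 3 and lane 3. All other shoot libraries were in pool 1 and lane 8. Compound and pool are therefore partly mixed where ACC or KMBA shoots are compared with WT shoots or with each other. Whole organs were collected, so fewer cells of a type and less RNA per cell cannot be told apart either.

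Cytochromes P450 are heme enzymes of the endoplasmic reticulum that insert an oxygen atom into small molecules, with a conserved cysteine holding the heme iron. 2-Oxoglutarate-dependent dioxygenases are soluble enzymes that oxidize their substrates with a non-heme iron held by histidine and aspartate residues. Plants have large families of both, and many members act in the synthesis of specialized metabolites, flavonoids, sterols and hormones, often in particular cell types of the root. The CYP93 family is best known from legumes, where it includes isoflavone synthase, and the AOP dioxygenases, to which AT1G52820 is close in sequence, include enzymes that modify glucosinolate side chains.

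CYP93D1 and CYP712A2 lie next to each other on chromosome 5, on the same strand, with 344 bases between them. By the RefSeq annotation of TAIR10.1, CYP93D1 spans chr5:2136002-2137941 and CYP712A2 chr5:2138286-2140078, both on the minus strand and each with 2 coding exons. Their proteins of 507 and 521 residues were 36.7% identical over 490 aligned residues. AT1G52820 spans chr1:19669005-19670427 and AT1G15540 chr1:5342090-5343876, both on the plus strand and each with 3 coding exons. Their proteins of 317 and 327 residues were 38.4% identical over 307 residues. Neither pair is similar enough for its members to be near-identical copies.

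The stretch of 30 coding bases around the heme cysteine is shown for both P450 members and for CYP712A1 (AT2G42250), their closest relative by protein sequence, because all 3 genes had lower values in ACC than in KMBA roots. Capitals mark the codon of the cysteine, and coordinates and sequences are those of TAIR10.1.
CYP93D1, chr5:2136358-2136387, minus strand: tttggagctgggagaagaagtTGTcctgga
CYP712A2, chr5:2138636-2138665, minus strand: tttgggagcggaagacgaggaTGTcttgga
CYP712A1, chr2:17600246-17600275, minus strand: tttgggagtggaaggagaggaTGTccagga
All 3 stretches begin with a phenylalanine and a glycine codon and share the cysteine codon TGT.

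The corresponding 30 bases around the iron ligands are shown for both dioxygenase members and for AT1G52790 and AT1G52800, which lie in the same gene array as AT1G52820 and also had lower values in ACC roots. Capitals mark the codons of the histidine and of the aspartate.
AT1G52820, chr1:19669843-19669872, plus strand: ctaaacgctCATactGATaaaaacatagtc
AT1G15540, chr1:5343233-5343262, plus strand: ttcatttctCATacgGACaagagcttcatc
AT1G52790, chr1:19662639-19662668, minus strand: tttgttacaCACacaGACaagagcttcaca
AT1G52800, chr1:19664799-19664828, plus strand: tttcctcagCACaccGATaagacctttcta
The histidine codon was CAT in both members and CAC in the 2 array genes. The aspartate codon was GAT in AT1G52820 and AT1G52800 and GAC in AT1G15540 and AT1G52790.

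The 150 bases before each annotated gene start are shown, because the 4 genes had the same direction of difference in roots. Capitals mark matches, on either strand, to 2 short motifs that are common in plant promoters.
CYP93D1, chr5:2137942-2138091, minus strand: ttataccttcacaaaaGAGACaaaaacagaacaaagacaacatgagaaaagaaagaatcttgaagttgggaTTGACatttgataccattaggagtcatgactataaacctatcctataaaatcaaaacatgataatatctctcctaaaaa
CYP712A2, chr5:2140079-2140228, minus strand: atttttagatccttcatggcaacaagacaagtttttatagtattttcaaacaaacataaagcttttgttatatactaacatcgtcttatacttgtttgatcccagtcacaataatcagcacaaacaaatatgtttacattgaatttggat
AT1G52820, chr1:19668855-19669004, plus strand: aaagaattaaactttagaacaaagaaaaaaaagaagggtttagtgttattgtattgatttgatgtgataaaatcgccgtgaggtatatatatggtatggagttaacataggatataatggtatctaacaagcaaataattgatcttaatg
AT1G15540, chr1:5341940-5342089, plus strand: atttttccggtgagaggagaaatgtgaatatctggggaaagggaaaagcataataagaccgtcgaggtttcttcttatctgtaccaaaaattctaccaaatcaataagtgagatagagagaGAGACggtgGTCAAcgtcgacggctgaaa
The W-box core TTGAC, bound by WRKY factors, occurred once in CYP93D1 and once, as GTCAA on the plus strand, in AT1G15540, and was present in 30.7% of 27443 promoters of this length. The sulfur-response core GAGAC occurred once in each of the same genes and in 16.8% of all promoters. No letters of the G-box CACGTG (4.78% of all promoters), the GCC box GCCGCC (1.10%), the EIN3 site ATGNATCT (2.50%) or the phosphate-response element GNATATNC (3.12%) were found in these 4 windows. The matches of the 2 motifs did not overlap, and none of the 6 motifs was present in all 4 windows. Gene starts were taken from the annotation.

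CYP93D1 had 21.0, 11.3 and 15.4 FPKM in KMBA root replicates 1, 2 and 3, and 0.652, 0.757 and 0.840 FPKM in ACC root replicates 1, 2 and 3. The lowest KMBA library was 13.5 times the highest ACC library. The mean was 15.9 ± 4.84 FPKM with KMBA and 0.750 ± 0.0938 FPKM with ACC (SD, n = 3 each), a ratio of 21.2.

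CYP712A2, its neighbour, had 15.6, 7.03 and 10.3 FPKM in KMBA root replicates 1, 2 and 3, and 0.260, 0.275 and 0.352 FPKM in the ACC root replicates. The groups were again well apart, with the lowest KMBA library at 20.0 times the highest ACC library. The means of 11.0 ± 4.33 and 0.295 ± 0.0491 FPKM (SD, n = 3 each) gave a ratio of 37.2, the highest of the 4 genes. Within single libraries, CYP93D1 had 1.34, 1.61 and 1.49 times the FPKM of CYP712A2 in KMBA roots, and 2.51, 2.76 and 2.39 times in ACC roots. Of the P450 pair, CYP93D1 was thus the higher in every root library, by a larger ratio in each ACC library than in any KMBA library.

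AT1G52820 had 161.7, 94.3 and 125.0 FPKM in KMBA root replicates 1, 2 and 3, and 11.6, 11.8 and 14.1 FPKM in the ACC root replicates. It was the most strongly expressed of the 4 genes in both groups. The means were 127.0 ± 33.7 and 12.5 ± 1.36 FPKM (SD, n = 3 each), a ratio of 10.2.

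AT1G15540 had 17.9, 6.70 and 11.1 FPKM in KMBA root replicates 1, 2 and 3, and 0.251, 0.436 and 0.335 FPKM in the ACC root replicates. The lowest KMBA library was 15.4 times the highest ACC library. The means were 11.9 ± 5.63 and 0.340 ± 0.0926 FPKM (SD, n = 3 each), a ratio of 34.9.

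**Figure D1:**
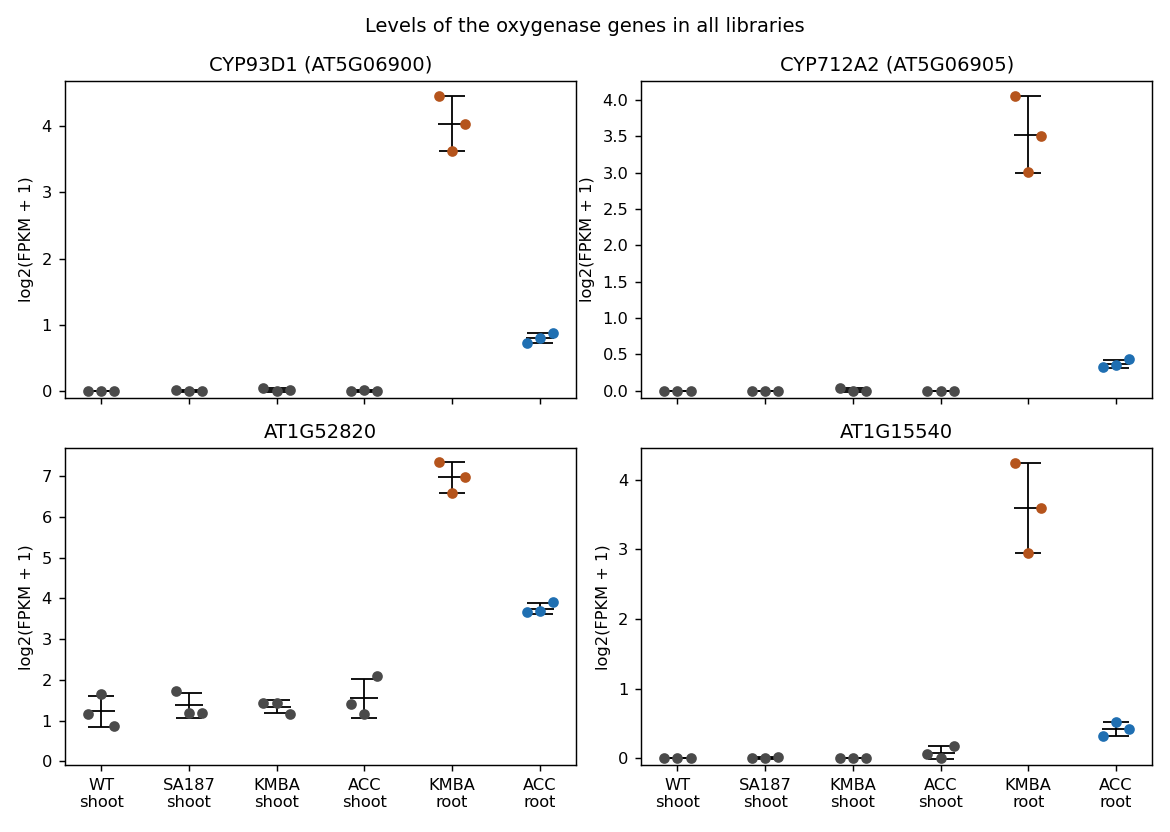
Level of each gene as log2(FPKM + 1) in the 18 libraries, with 1 point per library, the mean as a bar and the SD as whiskers (n = 3 per group). The 3 KMBA root libraries are above the 3 ACC root libraries in every panel, and only AT1G52820 rises clearly above the axis in shoots, where its highest library had 3.24 FPKM.

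FPKM is scaled to transcript length, so levels can be set side by side between genes. In KMBA roots AT1G52820 was above the other 3 genes in every library, whereas the ranges of CYP93D1, CYP712A2 and AT1G15540 overlapped. In ACC roots the order of the levels was AT1G52820, then CYP93D1, then AT1G15540 and CYP712A2, whose ranges overlapped. Measured against the 17169 genes tested in roots, the mean in KMBA roots was higher than 98.0% of genes for AT1G52820, 78.3% for CYP93D1, 71.2% for AT1G15540 and 69.3% for CYP712A2. In ACC roots AT1G52820 was above 73.0% of the tested genes. No such share is given for the other 3 genes with ACC, as they were under 1 FPKM in every ACC library and were among the tested genes only through their KMBA values.

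On the log2(FPKM + 1) scale, which understates the change of low genes, the difference ACC minus KMBA was -3.23 (SE 0.19) for CYP93D1, -3.22 (SE 0.18) for AT1G52820, -3.17 (SE 0.29) for AT1G15540 and -3.15 (SE 0.23) for CYP712A2. These were the 4 genes under -3 among 17169 tested, and 14 genes were under -2. Across all tested genes 0.687% were lower with ACC at an adjusted p under 0.05 and a fold over 2 (limma), and 18.6% had all ACC libraries below all KMBA libraries, as all 4 genes did. As the genes were taken from the extreme of this contrast, nothing is read from those shares for them. Just outside, CYP712A1 stood at -2.96 and CYP76G1 (AT3G52970) at -2.95, followed by AT1G52790 at -2.57 and the UDP-glycosyltransferase gene AT3G02100 at -2.38. Of these next 4 genes, 2 were P450s and 1 a dioxygenase, where 145 further P450 and 85 further dioxygenase genes were among the 17169 tested. They come from the same extreme, and CYP76G1, AT1G52790 and AT3G02100 needed their KMBA values to be tested, so nothing is read from this count. The near-equal differences and the ranks depend on adding 1 to FPKM. With a pseudocount of 0.1 the difference was -4.74 for CYP712A2, -4.68 for AT1G15540, -4.20 for CYP93D1 and -3.31 for AT1G52820, which then ranked 1, 3, 6 and 9 among the falls, with CYP76G1 at rank 2 (-4.73). By the ratio of KMBA to ACC means the ranks were 2 for CYP712A2, 3 for AT1G15540, 5 for CYP93D1 and 9 for AT1G52820, and CYP76G1 was highest at 39.4.

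**Figure D2:**
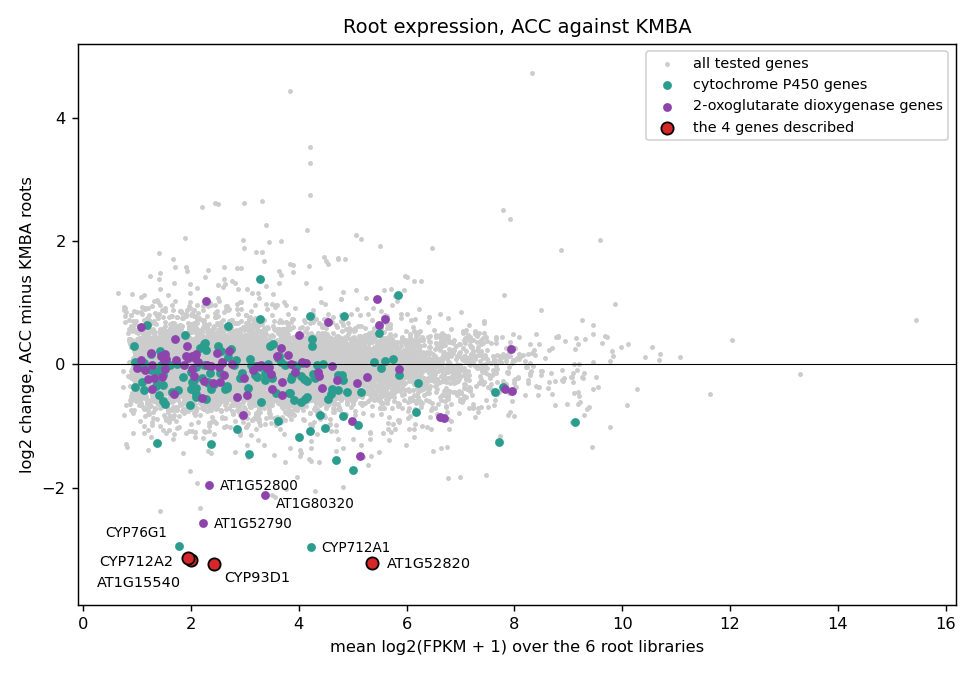
Difference between ACC and KMBA roots (log2 scale, ACC minus KMBA) against the mean level over the 6 root libraries, with 1 point per tested gene. The 4 genes lie at the lower edge between -3.15 and -3.23, with CYP712A1 and CYP76G1 just above them, while most P450 and dioxygenase genes lie near 0.

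The 3 KMBA root libraries differed among themselves in the same way for all 4 genes. Replicate 1 was the highest, replicate 3 intermediate and replicate 2 the lowest, with replicate 1 at 1.85 times replicate 2 for CYP93D1, 2.22 times for CYP712A2, 1.71 times for AT1G52820 and 2.67 times for AT1G15540. Among all tested genes 10.5% had this order, and 1.18% had it with a ratio of at least 1.5. Of the 14 further P450 and dioxygenase genes that fell, described below, 11 had this order. The estimated depth of these libraries had that order too, at about 64.2, 48.7 and 31.8 M fragments in replicates 1, 3 and 2, and its part in the order was not tested. The ACC root libraries were closer together, with the highest at 1.21 to 1.74 times the lowest.

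**Figure D3:**
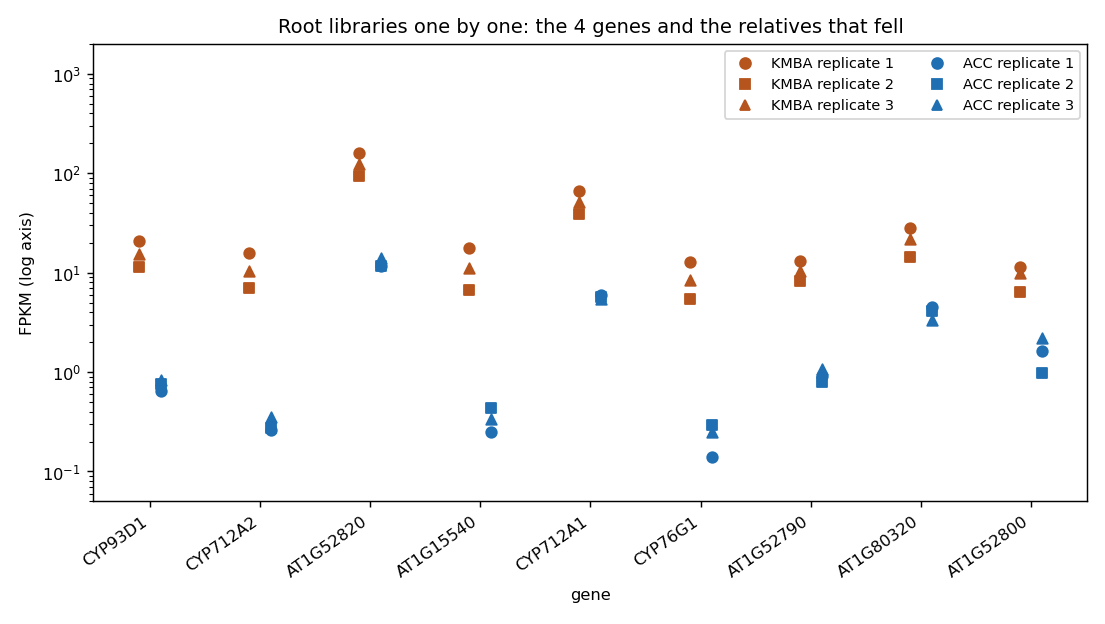
FPKM (log axis) in the single root libraries, with symbols for the replicates and colours for the compound. In all 9 genes KMBA replicate 1 is the highest and KMBA replicate 2 the lowest KMBA library, and the ACC libraries lie below, from 11.6 to 14.1 FPKM for AT1G52820 and from 0.251 to 0.436 FPKM for AT1G15540.

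The low ACC values rested on few fragments. From the smallest steps of the FPKM values, library depth was estimated at 16.9 to 22.9 M fragments for WT shoots and 31.8 to 64.2 M for the other groups. The ACC root libraries then held about 38, 45 and 63 fragments of CYP93D1, 15, 17 and 27 of CYP712A2, 11, 19 and 19 of AT1G15540, and 537, 561 and 846 of AT1G52820. In KMBA roots the same estimate ran from 270 fragments for AT1G15540 in replicate 2 to 14063 for AT1G52820 in replicate 1. Values at exactly 0 need caution in such files. PYK10, a strongly expressed root beta-glucosidase gene, was listed at 0 in KMBA root replicate 1 and at 434 to 965 FPKM in the other 5 root libraries. None of the 4 genes was listed at 0 in any root library.

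Most tested genes next to the 4 members had differences near 0, and those that fell were in the dioxygenase array around AT1G52820. On chromosome 5, ATJ6, a DnaJ-type chaperone gene that starts 321 bases from CYP712A2 on the opposite strand, had a log2 difference of -0.07 (limma, adjusted p = 0.593). On the other side lie 2 genes for polygalacturonase-inhibiting proteins, which act in defence against fungal cell wall enzymes. PGIP1 was higher with ACC by 0.67 on the log2 scale (limma, adjusted p = 0.0054), under the 2-fold threshold, and PGIP2 had a difference of -0.89 (adjusted p = 0.126). Beside AT1G15540, AT1G15530 on the opposite strand at 158 bases had a difference of -0.0044 (adjusted p = 0.973). On its other side GA3OX1, a dioxygenase of gibberellin synthesis at 511 bases, had a difference of 0.16 (adjusted p = 0.286).

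AT1G52820 stands in an array with 3 more dioxygenase genes, AT1G52790, AT1G52800 and AT1G52810. AT1G52790 had 13.2, 8.23 and 10.3 FPKM in KMBA root replicates 1, 2 and 3 and 0.903, 0.800 and 1.09 FPKM in the ACC root replicates, and it fell by 2.57 on the log2 scale (SE 0.15, limma, adjusted p = 0.000517). AT1G52800 had 11.3, 6.32 and 9.87 FPKM with KMBA and 1.63, 0.978 and 2.22 FPKM with ACC, and it fell by 1.96 (SE 0.23, limma, adjusted p = 0.00328). Both genes had ACC libraries below every KMBA library, as AT1G52820 did. AT1G52790 was under 1 FPKM in ACC root replicates 1 and 2, and AT1G52800 in replicate 2, so both needed their KMBA values to be tested. AT1G52810 was near 0, with means of 0.158 FPKM with KMBA and 0.00938 FPKM with ACC, and was not tested. AT1G52825 overlaps the last 33 bases of AT1G52820 on the opposite strand and had a difference of -0.27 (adjusted p = 0.148). The sources used here do not state whether counting used strand, so reads in that overlap cannot be told apart. Of 30 neighbours, 5 on each side of each gene, 16 were tested, 2 fell and 0 rose, against 0.687% of all tested genes lower and 0.571% higher. The 2 that fell were AT1G52790 and AT1G52800, so this count carries the limit that both needed their KMBA values to be tested.

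**Figure D4:**
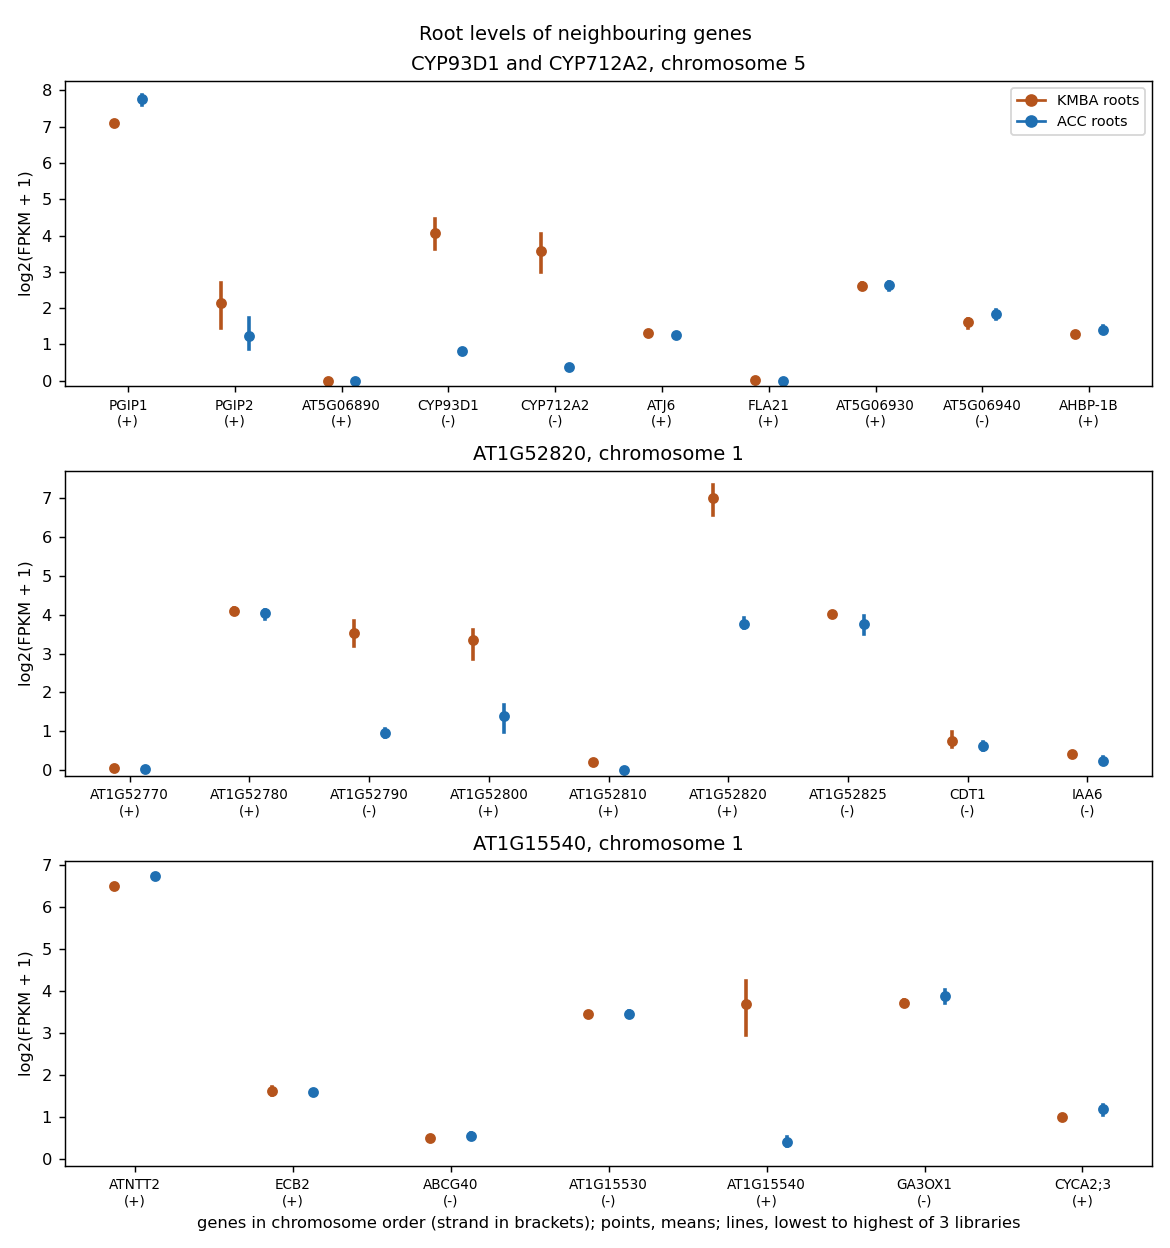
Root level as log2(FPKM + 1) of the genes around the 4 members, in chromosome order, with the mean as a point and the lowest to highest of 3 libraries as a line. CYP93D1, CYP712A2, AT1G52820, AT1G52790, AT1G52800 and AT1G15540 separate by compound, while ATJ6 at a difference of -0.07 and AT1G15530 at -0.0044 lie together. Some other genes also separate by smaller differences, such as PGIP1, ATNTT2 and CYCA2;3, higher with ACC, and AT1G52825, lower. Among all tested genes 18.6% had all ACC libraries below all KMBA libraries and 20.5% had all above.

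Of the genes closest by protein sequence, 1 relative of the P450 members and 3 of the dioxygenase members fell in ACC roots. CYP712A1, the closest relative of both P450 members at 41.5% identity to CYP93D1 and 46.8% to CYP712A2, had 66.1, 39.0 and 51.5 FPKM in KMBA root replicates 1, 2 and 3. Its ACC root replicates had 5.92, 5.74 and 5.41 FPKM, all below every KMBA library, and it fell by 2.96 (SE 0.17, limma, adjusted p = 0.000517). Of the 11 closest proteins of the P450 members outside the members themselves, 8 were tested and CYP712A1 was the 1 that fell (12.5%, against 0.687% of all tested genes). The 7 others were CYP705A genes with log2 differences close to 0, such as 0.02 for CYP705A27 and -0.0021 for CYP705A18, and the lowest was CYP705A19 at -0.44 (limma, adjusted p = 0.00956, under 2-fold).

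Of the 11 closest proteins of the dioxygenase members 8 were tested, and 3 fell (37.5%, against 0.687% of all tested genes), AT1G52790, AT1G52800 and AT1G80320. AT1G52790 and AT1G52800 needed their KMBA values to be tested, so the share carries that limit. The median log2 difference was -0.66 over the 8, against 0.0046 over all tested genes. AT1G80320, at 54.7% identity the closest relative of AT1G15540, had 28.4, 14.4 and 21.6 FPKM in KMBA root replicates 1, 2 and 3 and 4.56, 4.08 and 3.34 FPKM in the ACC root replicates. Its ACC libraries were all below its KMBA libraries, and it fell by 2.13 (SE 0.22, limma, adjusted p = 0.00228). AOP1, the closest relative of AT1G52820 at 64.2% identity, had a difference of -0.40 (limma, adjusted p = 0.0206), under 2-fold and at a low level of 1.78 FPKM with KMBA and 1.11 FPKM with ACC. AT1G14120 had a difference of -0.91 (adjusted p = 0.0110, under 2-fold) and AT1G14130 one of -0.06 (adjusted p = 0.641).

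Across the whole P450 family, 145 of 255 further genes were tested in roots, and 10 fell (6.90%, against 0.687% of all tested genes) and 2 rose (1.38%, against 0.571%), with a median difference of -0.21 against 0.0046 over all tested genes. The 5 largest falls were those of CYP712A1, CYP76G1, CYP705A12, CYP71A16 and CYP716A2. CYP76G1 had 12.9, 5.47 and 8.45 FPKM in KMBA root replicates 1, 2 and 3 and 0.140, 0.291 and 0.250 FPKM in the ACC root replicates, and it fell by 2.95 (SE 0.25, limma, adjusted p = 0.00101). CYP76G1 was under 1 FPKM in every ACC root library and was among the tested genes only through its KMBA values. Its p-value and its place among the 10 falls carry that limit. CYP705A12 and CYP71A16, both of the gene cluster for the root triterpene marneral, fell by 1.71 (58.1 ± 11.5 to 16.9 ± 2.24 FPKM) and by 1.55 (43.2 ± 6.70 to 14.0 ± 0.677 FPKM, SD, n = 3 each). CYP705A5, a desaturase of the thalianol pathway, fell by 1.25 from 330.8 ± 76.5 to 137.1 ± 21.6 FPKM, and CYP716A2, of a family of triterpene oxidases, fell by 1.46 from 14.0 ± 6.93 to 4.26 ± 1.68 FPKM (SD, n = 3 each). The remaining 4 falls, named after their values were seen, were those of the flavonoid 3'-hydroxylase gene TT7 and of CYP710A1, CYP710A2 and CYP710A4, of the sterol desaturase family. CYP710A4 had 1.34, 0.588 and 0.234 FPKM in ACC root replicates 1, 2 and 3. It also needed its KMBA values to be tested, so its place among the 10 falls carries the limit given for CYP76G1. The 2 rises were those of CYP718 (1.39) and CYP72A14 (1.13). In the CYP93, CYP705 and CYP712 families 20 of 25 further genes were tested, and 3 fell (15.0%, against 0.687% of all tested genes), CYP712A1, CYP705A12 and CYP705A5.

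Among the 2-oxoglutarate dioxygenases, 85 of 137 further genes were tested, and 4 fell (4.71%, against 0.687% of all tested genes) and 2 rose (2.35%, against 0.571%), with a median difference of -0.04. The share that fell includes AT1G52790 and AT1G52800, which needed their KMBA values to be tested, and carries that limit. Besides AT1G52790, AT1G52800 and AT1G80320, LDOX, which makes anthocyanidins, fell by 1.49 from 57.8 ± 2.18 to 20.2 ± 3.53 FPKM (SD, n = 3 each, limma, adjusted p = 0.000871). The rises were those of AT1G77330, an ACC oxidase-type gene, by 1.07 (29.2 ± 2.56 to 62.5 ± 9.07 FPKM) and of AT5G43450 by 1.04 (2.41 ± 0.531 to 6.11 ± 1.95 FPKM). Both rises were close to the 2-fold threshold, and 0 of the dioxygenase genes rose without ACC root replicate 3 and 1 without ACC root replicate 2, KMBA root replicate 1 or KMBA root replicate 3. These lists overlap, and the same gene counts in each list that holds it.

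The shoot libraries were not used to choose the genes. AT1G52820 was at or above 1 FPKM in 11 of 12 shoot libraries. It had 1.22, 2.12 and 0.835 FPKM in WT replicates 1, 2 and 3, 2.33, 1.28 and 1.29 FPKM in the SA187 replicates, 1.70, 1.69 and 1.22 FPKM in the KMBA replicates, and 1.67, 1.22 and 3.24 FPKM in the ACC replicates. The 4 groups overlapped, and the highest single value was in an ACC library. Means were 1.39 ± 0.661 FPKM in WT, 1.63 ± 0.601 FPKM with SA187, 1.54 ± 0.272 FPKM with KMBA and 2.04 ± 1.06 FPKM with ACC (SD, n = 3 each).

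No shoot comparison of AT1G52820 passed the test. ACC against KMBA shoots gave a log2 difference of 0.21 (SE 0.25, 95% interval -0.33 to 0.76, limma, adjusted p = 0.726), where 0.795% of 15724 tested genes were called in either direction. ACC against WT gave 0.33 (interval -0.22 to 0.87, adjusted p = 0.331, 4.89% of genes called), KMBA against WT gave 0.11 (interval -0.43 to 0.66, adjusted p = 0.761, 3.08% called) and SA187 against WT gave 0.15 (interval -0.40 to 0.69, adjusted p = 0.729, 1.62% called). The difference between organs was not tested, as the gene was chosen on its root values. As a description, its mean in roots was 82.6 times that in shoots with KMBA and 6.11 times with ACC.

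The other 3 genes were at or near 0 in shoots and did not enter the main shoot fit. CYP712A2 was listed at 0 in 11 of 12 shoot libraries and at 0.0279 FPKM in KMBA replicate 1. CYP93D1 was listed at 0 in 8 of 12, with its highest value of 0.0384 FPKM also in KMBA replicate 1. AT1G15540 was listed at 0 in 9 of 12, and its values above 0 were 0.0461 and 0.137 FPKM in ACC replicates 1 and 3 and 0.0179 FPKM in SA187 replicate 3. Their lowest ACC root library was above their highest shoot library in each case, at 0.652, 0.260 and 0.251 FPKM for CYP93D1, CYP712A2 and AT1G15540. CYP712A1, by contrast, was present in every shoot group, with means from 2.04 to 2.47 FPKM.

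The genes whose pattern over the 18 libraries was most like each member's were sought by Pearson r of log2(FPKM + 1) among 18547 genes, as a description. The libraries share the organ difference and, for 3 of the members, zeros in shoots, so high values are common. They also include the root libraries by which the members were chosen, so other genes with large root falls rank high through that choice. AT1G52790, CYP712A1, CYP76G1 and AT3G02100, named below, were the genes next in rank by root fall. For CYP93D1 the 5 highest were AT1G52790 (r = 0.997), CYP712A2 (0.995), CYP712A1 (0.994), AT1G15540 (0.993) and CYP76G1 (0.992), all of them oxygenase genes. For CYP712A2 they were CYP76G1 (0.999), AT1G15540 (0.999), the hydroxysteroid dehydrogenase genes HSD7 (0.998) and HSD4 (0.998), and AT3G02100 (0.996), and AT1G15540 had CYP76G1, CYP712A2, HSD4, HSD7 and AT3G02100. HSD4 and HSD7 are near-identical copies whose reads can be split between them, so their separate values are uncertain. AT1G52820 had other genes among its 5 highest. They were the cellulose synthase-like gene CSLB05 (AT4G15290, 0.992), the acyltransferase gene AT1G24420 (0.985), the fatty acid desaturase gene AT1G06120 (0.985), AT5G66815 (0.985) and the borate transporter gene BOR4 (0.985). CYP712A1 came close behind at rank 7 (0.984), and CYP93D1, AT1G15540 and CYP712A2 were at ranks 53, 234 and 257.

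Ethylene response genes rose with ACC in the same libraries. Of 17 listed genes 15 were tested and 7 rose with ACC, against 0.571% of all tested genes, with 0 falls and a median log2 difference of 0.97. They included the ethylene receptor gene ETR2 (3.15 ± 0.769 FPKM with KMBA and 14.2 ± 0.941 FPKM with ACC), EBF2, which directs degradation of EIN3 (30.3 ± 3.42 and 71.3 ± 1.23 FPKM), and the organ size gene ARGOS (1.29 ± 0.322 and 13.2 ± 3.29 FPKM; SD, n = 3 each).

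Markers of root cell types are given for the same root libraries. The 4 genes were chosen as the largest falls, so their differences are no yardstick for the markers. Of 58 markers in 11 lists of root cell types, 50 were tested and 0 passed both thresholds (limma). Among all tested genes 0.687% were lower and 0.571% higher by these thresholds, so few calls would come from 50 genes at those shares. The largest absolute log2 difference among the markers was 0.76, and 0 markers were listed at 0 in every root library. Summed levels in KMBA and ACC roots did not overlap for root hair (112.4 to 162.4 against 204.0 to 254.0 FPKM), root cap (3.70 to 4.71 against 6.12 to 6.96 FPKM), xylem (154.0 to 188.8 against 100.3 to 130.5 FPKM), suberin (177.3 to 203.4 against 138.9 to 149.0 FPKM), cortex (71.0 to 90.8 against 51.2 to 62.8 FPKM) and lateral root markers (6.83 to 7.77 against 4.64 to 5.42 FPKM). They did not overlap either for stele (40.4 to 43.9 against 48.7 to 50.6 FPKM), root meristem (9.45 to 10.7 against 11.7 to 12.4 FPKM) and non-hair epidermis markers (4.65 to 5.72 against 6.69 to 7.61 FPKM), and they overlapped for endodermis (85.5 to 107.0 against 86.3 to 94.0 FPKM) and phloem markers (35.7 to 38.6 against 36.2 to 37.8 FPKM). Green tissue markers summed to 397.4 to 413.1 FPKM in KMBA roots and 211.6 to 284.1 FPKM in ACC roots, against at least 11100 FPKM in WT shoots. A sum is led by the strongest genes of its list, and the members of a list could differ. In the endodermis list 4 of 6 tested markers had negative differences, and values ran from -0.33 for CASP4 to 0.33 for SCR. In the cortex list CO2 and PEP overlapped between compounds as single genes, and C/VIF2 did not. Among all single genes tested in roots, 18.6% had all ACC libraries below all KMBA libraries and 20.5% had all above. The part of these marker differences in the values of the 4 genes was not tested.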

How the data were processed

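The authors sequenced polyA RNA from shoots and roots, with 3 libraries per group. Per the labels, the submitters' processing notes name FastQC 0.11.5, Trimmomatic 0.36, TopHat, featureCounts 1.5.1 and Cufflinks 2.2.1 with Cuffdiff, and the build TAIR10. The deposited values were FPKM per gene and library, made by the authors, and the table holds no coordinates and no comparison columns. The sources used here do not state whether counting used strand.

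A gene entered a fit when 3 or more of its libraries reached 1 FPKM. Values were modelled as log2(FPKM + 1) by limma 3.58.1 under R 4.3.3 (eBayes with a trend, 2-sided, Benjamini-Hochberg adjustment over all tested genes) and genes were called at an adjusted p under 0.05 and a fold over 2. Root groups formed 1 fit and shoot groups another. Tested on simulated data for ACC against KMBA roots, 195 of 200 genes changed 4-fold were recovered, with 1 false call among 16980 genes. The changed genes were drawn from those with a mean log2(FPKM + 1) above 3 over the root libraries. The simulated noise held no pool effect, so these rates do not cover lower genes or differences between pools. The number of fragments per library was estimated from the lowest step of FPKM times transcript length, and cannot be checked against the reads.

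Gene names, coordinates and sequences came from RefSeq TAIR10.1, which matched 26703 of 27371 IDs. Coding sequences were translated with Biopython 1.88 in place of a protein table and compared with blastp 2.17.0 (e-value 1e-05, the 10 best genes per member). Figures used Python 3.11.15 and matplotlib 3.10.9. The members and all lists were chosen with earlier results of these data known. Named genes were the 4 members, the 5 genes most like each, up to 5 called falls and 5 called rises per list whose higher group averaged 5 FPKM or more without overlap, every called sequence relative and neighbour, and the 4 genes next in rank. Neighbours and relatives that were not called and 4 P450 genes were named in addition, after their values were seen, as were 3 ethylene response genes. Alternatives were eBayes without a trend, the replicate number as a block, median-ratio scaling, no filter, a pseudocount of 0.1, leaving out each library and, for shoots, only the 2 groups compared or the pool as a covariate. Ranks by ratio of means and at the smaller pseudocount were added after the data were seen.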

Additional observations from a re-analysis of the deposited data

How the results depend on the processing

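With a pseudocount of 0.1, 203 genes were lower and 188 higher in ACC roots, against 118 and 98, and the differences were -4.20 for CYP93D1, -4.74 for CYP712A2, -4.68 for AT1G15540 and -3.31 for AT1G52820. Leaving out each root library in turn gave 93 to 124 genes lower and 84 to 103 higher, and 0 to 2 dioxygenase genes higher. In the same fits 7 to 12 further P450 genes and 4 to 5 further dioxygenase genes were lower. CYP93D1, CYP712A2 and AT1G15540 had values in 3 of these 6 fits, from -3.27 to -3.19, -3.18 to -3.13 and -3.22 to -3.12, since without a KMBA library they no longer reach 1 FPKM in 3 libraries, and AT1G52820 ran from -3.41 to -3.03 in all 6. AT1G52820 passed none of 73 shoot tests of its 4 comparisons in alternative fits (lowest adjusted p = 0.100, limma). Some of these tests left out a library of a group not compared, which cannot change the difference itself. Without the filter the other 3 genes gave adjusted p from 0.127 to 1 in 12 shoot tests (limma). These genes were at or near 0 FPKM in shoots, so such tests could hardly show a difference and nothing is read from them.

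Replicate numbers were not used to pair the root samples in the main fit, and whether they pair them was not settled. Same-numbered libraries deviated with r of 0.197, -0.068 and 0.272 across genes, and different-numbered ones with r from -0.279 to 0.042. With the replicate number as a block, 122 genes were lower and 102 higher, and AT1G52820 was at -3.22 in roots and at 0.21 (adjusted p = 0.728) for ACC against KMBA shoots. Depth limits the 3 weakly expressed genes in ACC roots, where about 11 to 63 fragments lay behind each value.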
